A study of Mus musculus with 8 samples.

Results

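The 10 genes described here encode enzymes and regulatory subunits that make ceramide and glucosylceramide, or take ceramide apart again, in intestinal epithelial cells (IECs). They were chosen by name (Sptlc1, Sptlc2, Sptssa, Sptssb, Cers6, Degs1, Degs2, Ugcg, Asah1 and Asah2), with results of the same comparison already known, out of 25239 genes in the count table. All 10 had counts in every sample and all 10 received an adjusted p-value. The study asked how the absence of CD1d and of the natural killer T (NKT) cells that depend on it changes the small intestinal epithelium. Bulk RNA-seq was available for 4 CD1d-KO and 4 WT samples of IECs. They were sorted as EpCAM+CD45-CD31-Ter119- cells from crypts of the proximal small intestine, a preparation that the methods call crypt-enriched. CD1d-KO mice (genotype CD1d1/2 KO in the labels) carry a germline deletion that removes both Cd1d1 and Cd1d2, so CD1d is missing from the epithelium as well as from antigen-presenting cells and NKT cells do not develop, while WT mice are given as C57BL/6Jax. No treatment is given in the labels, the mice were 7 to 10 weeks old according to the methods, and the samples came from a pair of experiments that the labels do not assign, so a part of the experiment in any difference was not tested.

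Sphingolipids are built on a long-chain base. Serine palmitoyltransferase joins serine and palmitoyl-CoA in the endoplasmic reticulum, ceramide synthases add a fatty acid, a desaturase turns dihydroceramide into ceramide, and glucosylceramide synthase adds the first sugar, while ceramidases release the base again. In the intestine these lipids stiffen the apical membrane of enterocytes, and glycosylceramides are also among the lipids that CD1d can present to NKT cells.

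Total counts ran from 23610266 to 31629435 per sample. Cd1d1 had 0 to 8 reads in the CD1d-KO samples and 50 to 94 in WT, in accord with the labels. Markers of epithelium were abundant in every sample, with summed normalized counts between 315300 and 352900, and the summed stromal, endothelial and erythroid markers stayed at or below 37.3. A pair of features set libraries apart. CD1d-KO samples 1 and 2 held 1722 and 2053 normalized counts of the Y-linked gene Ddx3y against at most 1 read in the other 6 samples, whereas the methods describe mice matched for sex between genotypes. Stomach markers were summed at 13870 normalized counts in WT sample 3 and 6828 in WT sample 4, against 1964 and 2015 in the other WT samples and 664.7 to 1365 in CD1d-KO. Much of the CD1d-KO sums was Gkn3, which was similar in both genotypes (means 732.8 in CD1d-KO and 777.1 in WT). As a mean centred log2 score, the list stood at -2.56, -2.55, -2.62 and 0.31 in CD1d-KO samples 1 to 4. In WT samples 1 to 4 it stood at 0.74, 1.04, 3.2 and 2.44, so WT samples 1 and 2 were also above CD1d-KO. Results that rest on CD1d-KO samples 1 and 2 or on WT samples 3 and 4 are therefore given with and without them.

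One of the 10 genes passed the test between genotypes. Sptssb was lower in CD1d-KO IECs, and none of the 10 was higher. DESeq2 called 622 of 15446 tested genes at a Benjamini-Hochberg adjusted p under 0.05, or 4.03%, of which 2.38% of tested genes were lower and 1.65% were higher in CD1d-KO. The median log2 fold change of the 10 genes was 0.037, beside 0.001 over all tested genes, and the median size of the change without its sign was 0.12 beside 0.114. Normalized counts of the genotypes did not overlap for 1 of the 10 genes, beside 9.61% of all tested genes. Because the genes were chosen with this contrast in view, these counts describe the 10 genes and nothing is read from their share.

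**Figure D1:**
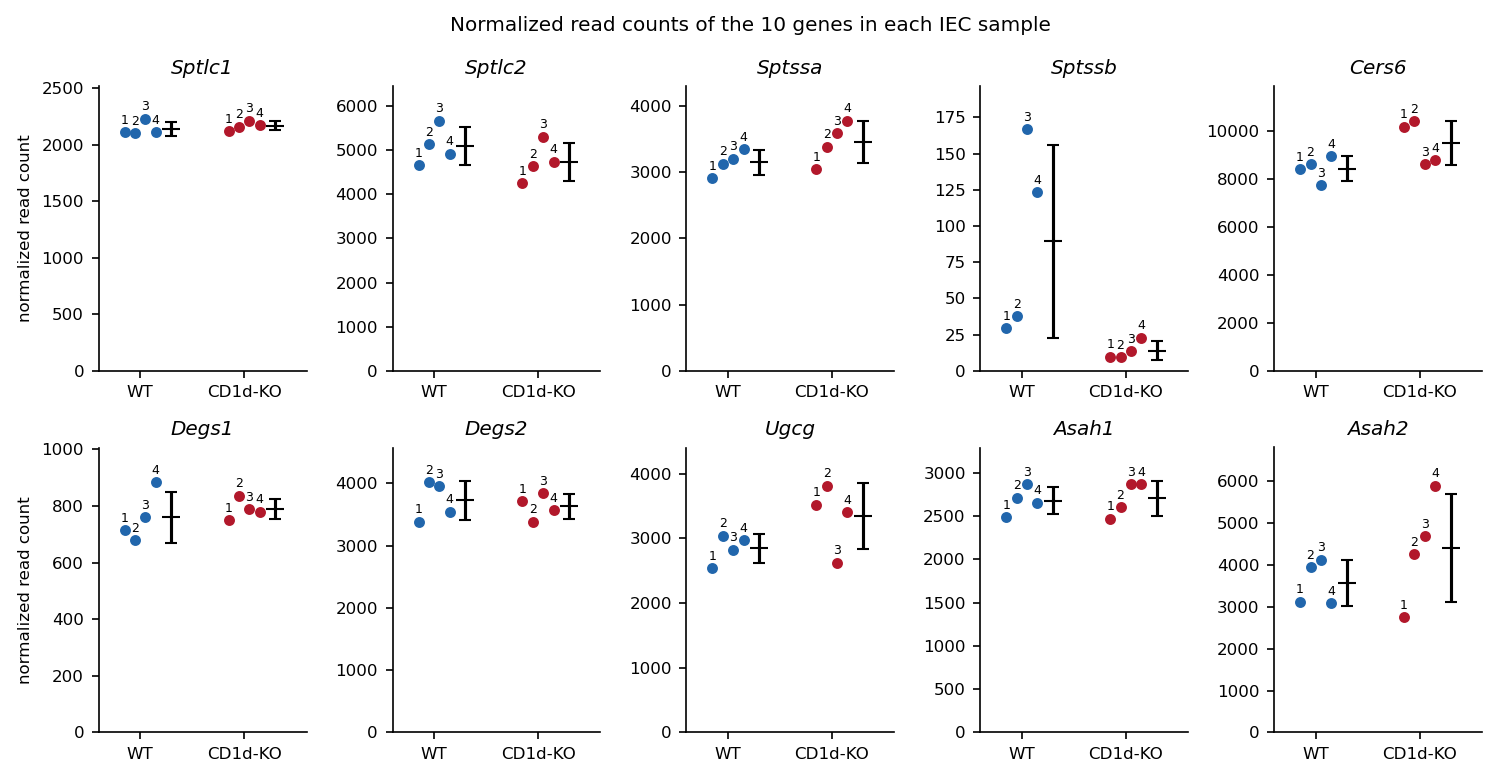
Normalized read count (linear axis from 0) of each gene in each of the 8 samples, with points numbered by sample and the black bar giving mean ± SD (n = 4). Sptssb is the gene whose genotypes do not overlap, with all CD1d-KO samples at or below 23.0 and all WT samples at or above 29.5.

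The first step of the pathway uses a catalytic heterodimer. Its subunits Sptlc1 (chr13:53332748-53377361, minus strand, mm10) and Sptlc2 (chr12:87305058-87388355, minus strand) together form the active site. Sptlc1 was the steadiest of the 10 genes. It stood at 2119, 2161, 2214 and 2173 normalized counts in CD1d-KO samples 1 to 4 and at 2113, 2100, 2232 and 2110 in WT samples 1 to 4, and the genotypes overlapped throughout. Its log2 fold change (CD1d-KO over WT) was 0.02 (SE 0.05, 95% interval -0.09 to 0.12, DESeq2 adjusted p = 0.944). Sptlc2 was measured at 4247, 4642, 5307 and 4742 normalized counts in CD1d-KO and at 4665, 5137, 5666 and 4921 in WT. Sample 3 was the highest of each genotype, and the difference was within the spread between samples (log2 fold change -0.11, SE 0.09, DESeq2 adjusted p = 0.631). The level of Sptlc1 over that of Sptlc2, both per kb of exon, was 1.20 ± 0.0877 in CD1d-KO and 1.10 ± 0.0667 in WT (SD, n = 4). Sptlc3, which encodes an alternative catalytic subunit, had no read in any of the 8 samples.

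Serine palmitoyltransferase also takes a small activating subunit, encoded by Sptssa or by Sptssb, and the choice between them alters which acyl-CoA lengths the enzyme accepts. Sptssb passed the test and Sptssa did not, although the difference between their changes was not itself tested. Sptssa (chr12:54645374-54656572, minus strand) was at 3037, 3378, 3585 and 3774 normalized counts in CD1d-KO and at 2905, 3126, 3197 and 3340 in WT, with overlapping genotypes and little difference on the log2 scale (0.13, SE 0.08, DESeq2 adjusted p = 0.462). Sptssb (chr3:69819539-69859894, minus strand) was far less abundant, with 9.84, 9.52, 13.7 and 23.0 normalized counts across the CD1d-KO samples and 29.5, 37.7, 166.8 and 123.5 across the WT samples. Every CD1d-KO sample was below every WT sample, and WT samples 3 and 4 stood well above WT samples 1 and 2.

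Sptssb was 6.38-fold lower in CD1d-KO than in WT IECs (log2 fold change -2.67, SE 0.52, 95% interval -3.68 to -1.66, DESeq2 adjusted p = 3.3e-05). The means were 14.02 ± 6.30 and 89.4 ± 66.9 normalized counts (SD, n = 4 per genotype), from 10 to 24 reads in CD1d-KO and 30 to 172 in WT. In sorted bulk samples, fewer cells that express a gene and less of its RNA per cell cannot be told apart. Relative to both small subunits together, per kb of exon, Sptssb made up 0.247%, 0.215%, 0.291% and 0.465% in CD1d-KO, against 0.769%, 0.914%, 3.83% and 2.75% in WT. Sptssa was thus the main small-subunit transcript in all 8 samples, 25.1 to 464.0 times the level of Sptssb per kb.

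The start regions of these paralogs are shown because one gene of the pair was called and its paralog was not. Each sequence is the 250 bases before the RefSeq start (GRCm38.p6, the build also called mm10), written 5′ to 3′ on the strand of the gene, and capitals mark a GC box (letters GGGCGG) or the letters of a CCAAT box, on either strand.
Sptssb, chr3:69859895-69860144, minus strand: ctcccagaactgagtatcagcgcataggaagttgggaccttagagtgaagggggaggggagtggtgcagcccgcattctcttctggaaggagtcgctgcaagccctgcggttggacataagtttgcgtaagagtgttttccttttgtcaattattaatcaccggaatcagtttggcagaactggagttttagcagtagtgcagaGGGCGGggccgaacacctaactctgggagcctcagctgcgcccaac
Sptssa, chr12:54656573-54656822, minus strand: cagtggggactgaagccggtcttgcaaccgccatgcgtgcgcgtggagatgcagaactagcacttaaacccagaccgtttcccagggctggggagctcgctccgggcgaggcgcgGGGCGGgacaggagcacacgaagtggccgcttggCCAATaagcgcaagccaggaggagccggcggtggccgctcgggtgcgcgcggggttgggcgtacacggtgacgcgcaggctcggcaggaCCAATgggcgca
The Sptssb window held 1 GC box, no CCAAT box and 9 CpG dinucleotides. In the Sptssa window there were 1 GC box, 2 CCAAT boxes and 28 CpG, against a median of 6 CpG over 32851 RefSeq promoters cut to the same window. A GC box was found in 32.7% of those promoters and a CCAAT box in 33.8%. Searched on both strands, neither window held the TATA box spelled TATAAA, which was present in 12.4% of promoters. Neither held the STAT core spelled TTCNNNGAA, present in 7.02%, nor the GATA site spelled AGATAA, present in 9.99%. No matched motif overlapped another in these windows, and a letter match is a description of the sequence only. RefSeq promoters matched 9 of the 10 genes by symbol; Asah1 was not matched.

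Many stomach markers moved with Sptssb across the samples, but not all. Of 13 genes on a list of stomach markers, 11 were tested and 10 of these had a log2 fold change below 0. In CD1d-KO, 5 were called lower (Cldn18, Anxa10, Ctse, Muc5ac and Vsig1) and 1, the proton pump subunit gene Atp4a, was called higher. Gkn1 (log2 fold change -5.69), Gkn2 (-5.24) and Tff1 (-4.95) were not called, although their genotypes did not overlap. Pgc, left untested by Cook's rule, was highest in WT sample 3 (1299 normalized counts). Gkn3 was similar in both genotypes (log2 fold change -0.08). These exceptions include genes with few reads. Atp4a had 19 to 53 reads per sample and Cblif 1 to 16, with 2 in WT sample 3 and 3 in WT sample 4. Atp4b had at most 1 read in any sample. Cldn18, which encodes the claudin of gastric tight junctions, had 0.894, 0, 0 and 17.3 normalized counts in CD1d-KO, against 37.3, 38.8, 479.9 and 193.2 in WT. The 4 WT samples stood in the same order for Cldn18 as for Sptssb, and CD1d-KO sample 4 was the highest of its genotype for both. In all, 8 of the 13 stomach markers had at most 3 reads in at least 3 CD1d-KO samples, though Atp4b, among these 8, was as low in WT. Where Cldn18 had no read, in CD1d-KO samples 2 and 3, Sptssb still had 10 and 14 reads. The 3 markers of Brunner's gland or mucous neck cells were also lower in sum in CD1d-KO (1206 to 1406 normalized counts against 1822 to 5010 in WT). Of these, 1 was called, Muc6 (log2 fold change -1.70, DESeq2 adjusted p = 0.0137), while Ggt6 hardly differed (-0.06). Tff2 had the largest change of the 3 (-4.35, DESeq2 adjusted p = 0.103) and was not called, although its genotypes did not overlap. The part of stomach transcripts in the Sptssb difference was not tested beyond the fits that follow, and that of Brunner's gland transcripts was not tested.

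**Figure D2:**
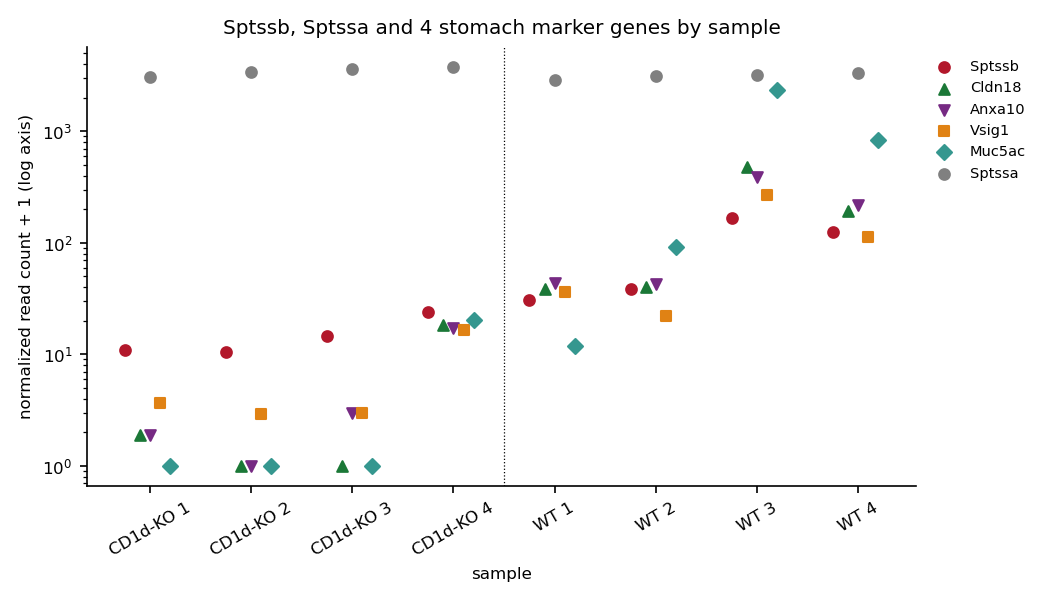
Normalized read count plus 1 (log axis) of Sptssb, its paralog Sptssa and 4 stomach markers in each sample. Sptssb and these 4 markers, picked from those that moved with it, are highest in WT samples 3 and 4 and lowest in CD1d-KO samples 1 to 3, whereas Sptssa lies between 2905 and 3774 in all 8.

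With the stomach marker score of each sample as a covariate, the log2 fold change of Sptssb was 0.06 (DESeq2 adjusted p = 0.987) and 0.757% of tested genes were called. The score includes genes called in this same contrast, and it was at most 0.31 in CD1d-KO and at least 0.74 in WT. Genotype and score can therefore hardly be told apart in this fit, here and for every gene given with it. Without WT samples 3 and 4, an alternative added after seeing the data, the log2 fold change of Sptssb was -1.26 (DESeq2 adjusted p = 0.284, with 2.13% of genes called), and the 2 remaining WT samples were still above all CD1d-KO samples. Their stomach scores (0.74 and 1.04) were also above those of all CD1d-KO samples (-2.62 to 0.31), so this fit does not remove the stomach difference. Restricted to the 6 samples without Y-linked counts, the log2 fold change of Sptssb was -2.28 (DESeq2 adjusted p = 0.207, 2.57% of genes called). The edgeR quasi-likelihood test gave -2.67 with an adjusted p of 0.0155 and called 1.57% of genes. Leaving out any single sample kept Sptssb called, with log2 fold changes from -3.02 to -2.18 and DESeq2 adjusted p of at most 0.0440. Sptssb lies 17.1 Mb from the deleted Cd1d1 on chromosome 3, and the part of linked sequence was not tested. Leukocyte markers were also lower in CD1d-KO (72.4 to 185.3 summed normalized counts against 157.7 to 1114 in WT, with 3 of 10 tested genes called). Among the WT samples they were highest in sample 1, which had the lowest Sptssb count of that genotype, and their part in the Sptssb difference was not tested.

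The 8 genes whose pattern over the samples was most like that of Sptssb were sought among 11720 other genes with a mean of at least 50 normalized counts, by Pearson's r of log2(normalized count + 1) over the 8 samples. They were Muc5ac (r = 0.982), Vsig1 (0.970), Anxa10 (0.969), Ankrd52 (0.967), Ubac1 (0.964), Mal (0.961), Fbxl18 (0.960) and Metrnl (0.957). The first 3 belong to the stomach list, and Cldn18 followed at rank 10. These values are descriptions over 8 libraries that share the genotype split, and the hundredth gene still had r = 0.876. Pearson's r also leaves out the size of a change. Ankrd52 (log2 fold change -0.14), Ubac1 (-0.15), Fbxl18 (-0.19) and Metrnl (-0.27) changed little and were not called. None of the other 9 sphingolipid genes came near: their r with Sptssb lay between -0.718 for Cers6 and 0.635 for Sptlc2.

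Ceramide synthases set the fatty acid length of ceramide, and Cers6 (chr2:68861441-69114283, plus strand) makes mainly species with a C16 chain. Cers6 was at 10170, 10400, 8624 and 8770 normalized counts in CD1d-KO and at 8408, 8603, 7732 and 8947 in WT. CD1d-KO samples 1 and 2, the pair with Y-linked counts, were the highest of all 8, whereas CD1d-KO samples 3 and 4 fell inside the WT range. The log2 fold change was 0.17 (SE 0.08, 95% interval 0.01 to 0.33) and did not pass the test over all genes (DESeq2 adjusted p = 0.270). In the 6 samples without Y-linked counts it was 0.05 (DESeq2 adjusted p = 0.918), and it was 0.01 (DESeq2 adjusted p = 0.991) once the stomach score entered the model. Per kb, Cers6 contributed 35.2% ± 2.30 of the summed Cers1 to Cers6 level in CD1d-KO and 33.5% ± 1.64 in WT (SD, n = 4). Cers2, the synthase for very-long-chain ceramides, contributed 46.3% ± 2.70 and 47.5% ± 1.85, so that Cers2 and Cers6 held most of the summed level of the family in both genotypes.

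The desaturases Degs1 and Degs2 complete ceramide, and Degs2 can also hydroxylate the base to give the phytoceramides typical of intestine. Degs1 (chr1:182275964-182282801, minus strand) was at 749.2, 836.2, 788.8 and 779.6 normalized counts in CD1d-KO and at 714.7, 678.0, 760.1 and 883.9 in WT. Degs2 (chr12:108686792-108702306, minus strand) was at 3715, 3381, 3845 and 3567 in CD1d-KO and at 3384, 4014, 3955 and 3542 in WT. Both overlapped between genotypes, with log2 fold changes of 0.06 (SE 0.10) and -0.04 (SE 0.08) and DESeq2 adjusted p of 0.874 and 0.898. Degs2 exceeded Degs1 per kb in every sample, by 2.44 ± 0.219-fold in CD1d-KO and 2.62 ± 0.425-fold in WT (SD, n = 4). The annotation places exon bases of Degs2 and of Evl over each other, and the reads were counted without strand, so a part of the Degs2 reads is uncertain.

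Ugcg (chr4:59189550-59222833, plus strand) encodes glucosylceramide synthase, the entry point to most glycosphingolipids. It was at 3518, 3814, 2622 and 3405 normalized counts in CD1d-KO and at 2541, 3042, 2823 and 2976 in WT. Thus 3 of 4 CD1d-KO samples were above every WT sample and CD1d-KO sample 3 lay among the lowest. Across all samples the log2 fold change was 0.23 (SE 0.11, 95% interval 0.02 to 0.45, DESeq2 adjusted p = 0.278). Without CD1d-KO sample 3 it was 0.33 and passed the threshold (DESeq2 adjusted p = 0.0030, 4.64% of genes called in that fit), so the call on Ugcg turned on 1 library. In the 6 samples without Y-linked counts, which leave out CD1d-KO samples 1 and 2, the pair with the highest Ugcg counts, it was 0.08 (DESeq2 adjusted p = 0.886).

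Asah1 and Asah2 encode ceramidases that work at different places. Asah1 (chr8:41340646-41374697, minus strand), the lysosomal acid ceramidase, was at 2471, 2608, 2872 and 2874 normalized counts in CD1d-KO and at 2486, 2714, 2867 and 2658 in WT, and its log2 fold change was 0.01 (SE 0.08, DESeq2 adjusted p = 0.975). Asah2 (chr19:31984651-32103140, minus strand), the neutral ceramidase of the enterocyte brush border, varied most among the genes besides Sptssb. It was at 2756, 4255, 4679 and 5886 normalized counts in CD1d-KO and at 3120, 3944, 4118 and 3078 in WT. CD1d-KO thus held both the lowest and the highest sample, the means were 4394 ± 1292 and 3565 ± 542.9 (SD, n = 4), and the log2 difference of 0.30 (SE 0.24, 95% interval -0.17 to 0.77) did not pass the test (DESeq2 adjusted p = 0.622).

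The level of Asah2 went with that of enterocyte markers over the samples. Summed over 10 enterocyte markers, the counts came to 129000, 170600, 190900 and 195200 in the CD1d-KO samples and 126800, 157100, 158100 and 131800 in the WT samples, so that the 3 samples with the lowest sums, CD1d-KO 1, WT 1 and WT 4, were also the 3 lowest for Asah2. All 10 markers had a log2 fold change above 0, from 0.01 to 0.53, and none was called. Their part in the Asah2 values was not tested. Asah2 passed the threshold without CD1d-KO sample 1 (log2 fold change 0.47, DESeq2 adjusted p = 0.0166, 3.22% of genes called) and in the 6 samples without Y-linked counts (0.57, DESeq2 adjusted p = 0.0022).

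**Figure D3:**
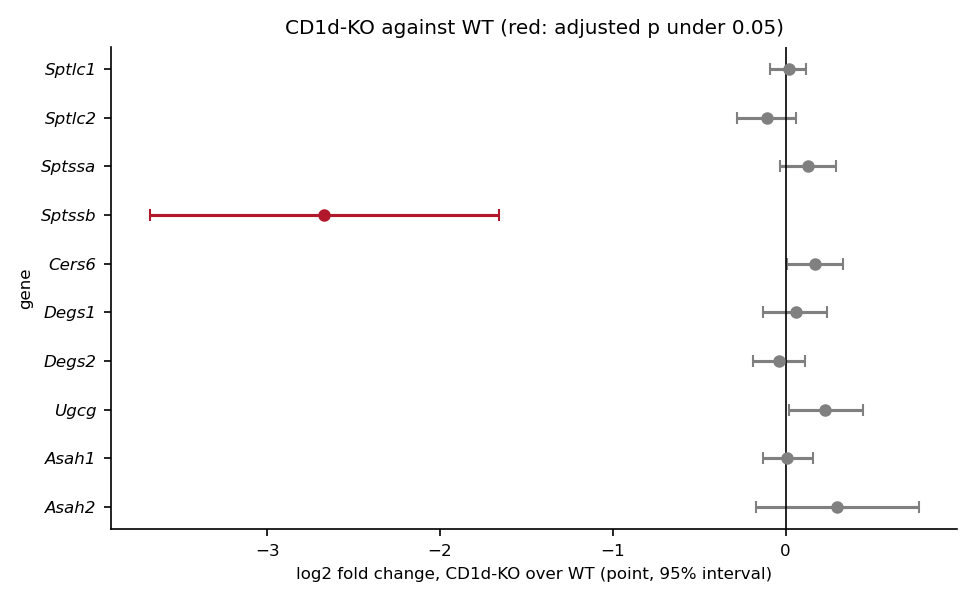
Log2 fold change of CD1d-KO over WT for the 10 genes in pathway order, as a point with its 95% interval from DESeq2. Sptssb lies at -2.67, and the other 9 genes lie between -0.11 and 0.30 with grey points that did not pass the adjusted threshold.

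Levels of different genes were compared per kb of exon in the WT samples, a measure that the genotype contrast did not use. Sptssa was the most abundant at 2305 ± 133.1 normalized counts per kb (SD, n = 4), above the range of every other gene. Asah1 (1193 ± 70.0), Cers6 (1192 ± 72.4) and Degs2 (1042 ± 86.4) followed, and neighbours in this order overlapped in their ranges. A further overlapping run was formed by Sptlc1 (832.2 ± 24.2), Ugcg (765.1 ± 59.9), Sptlc2 (759.6 ± 63.4) and Asah2 (740.0 ± 112.7). Degs1 was lower at 402.1 ± 47.5, and Sptssb was lowest at 50.1 ± 37.5. Sptssa lay at the 94.1 percentile of all tested genes, Degs1 at 65.2 and Sptssb at 30.6.

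**Figure D4:**
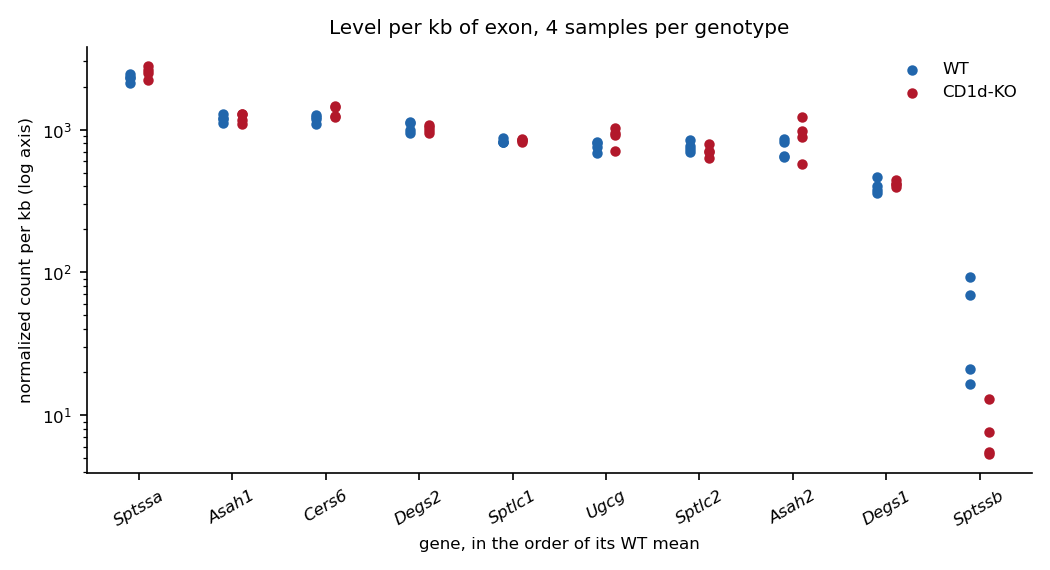
Normalized count per kb of exon (log axis) for the 10 genes in the order of their WT means, with 4 WT and 4 CD1d-KO samples as points. Sptssa is highest at 2305 in WT, 8 genes lie between 402.1 and 1193, and Sptssb is set apart at 50.1.

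The rest of sphingolipid metabolism was examined with a list of 71 other genes grouped by role, of which 5 had no read in any sample and 63 were tested. Of these, 2 were lower in CD1d-KO, 1 was higher and 60 were not called, which is 4.76% of those tested beside 4.03% of all genes. The median log2 fold change of the list was -0.007, with 30 genes above 0 and 33 below. Genotypes did not overlap for 10 of its genes, beside the 9.61% of all tested genes given above.

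Of the 3 genes of this list that passed, 2 were lower and 1 was higher in CD1d-KO. Gbgt1, which encodes a globoside transferase of the Forssman type, was at 111.8, 84.8, 94.8 and 107.5 normalized counts in CD1d-KO and at 164.0, 175.0, 222.0 and 184.6 in WT. The genotypes were separated by a wide gap, and Gbgt1 was 1.87-fold lower in CD1d-KO (log2 fold change -0.90, SE 0.16, DESeq2 adjusted p = 6.2e-06). Smpdl3b, a membrane-bound phosphodiesterase of the sphingomyelinase family, was at 386.2 to 505.4 in CD1d-KO and at 528.2 to 651.9 in WT (-0.45, SE 0.11, DESeq2 adjusted p = 0.0038). Sgms2, which encodes the plasma membrane sphingomyelin synthase, was the gene that was higher, at 2740 to 2993 in CD1d-KO and 2305 to 2642 in WT (0.24, SE 0.07, DESeq2 adjusted p = 0.0136). Adding the stomach score to the model left Gbgt1 (log2 fold change -0.55), Smpdl3b (-0.55) and Sgms2 (0.29) uncalled. Gbgt1 was called in 15 of the 16 alternatives. Among these were the fit without WT samples 3 and 4 (-0.76, DESeq2 adjusted p = 0.0317) and that of the 6 samples without Y-linked counts (-0.88, DESeq2 adjusted p = 0.0043). Smpdl3b was also not called without WT samples 3 and 4 (-0.44, DESeq2 adjusted p = 0.117) or in the 6 samples without Y-linked counts (-0.37, DESeq2 adjusted p = 0.179). Sgms2 was not called without WT samples 3 and 4 (0.26), in the samples without Y-linked counts (0.23), by edgeR (0.24, adjusted p = 0.0699) or in 5 of the 8 fits that left out 1 sample, while its log2 fold change stayed between 0.21 and 0.29 in all 16 alternatives.

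Of the 9 tested partners of de novo synthesis, none was called. Among them Kdsr, the ketoreductase that acts after serine palmitoyltransferase, had the largest test statistic, with 1867 ± 73.8 normalized counts in CD1d-KO and 1643 ± 106.3 in WT (SD, n = 4; log2 fold change 0.18, DESeq2 adjusted p = 0.120). The lysosomal group of 13 genes had none called and had its most extreme test statistics in opposite directions, in Glb1, the acid beta-galactosidase (0.22, DESeq2 adjusted p = 0.0842), and in Neu1, the lysosomal sialidase (-0.22, DESeq2 adjusted p = 0.0848). Among 14 tested ceramidases and genes of sphingosine and sphingosine-1-phosphate, none was called, and the alkaline ceramidase gene Acer1 was at 535.6 ± 13.98 in CD1d-KO and 432.9 ± 60.5 in WT (SD, n = 4; 0.30, DESeq2 adjusted p = 0.0908). Elovl6, an elongase of palmitate, stood for the 3 tested elongases at -0.18 (DESeq2 adjusted p = 0.471). The largest fold changes among the tested genes of the list, in S1pr4, St3gal5 and Ugt8a, came from genes with a mean below 10 normalized counts in both genotypes, and none of them passed the test.

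**Figure D5:**
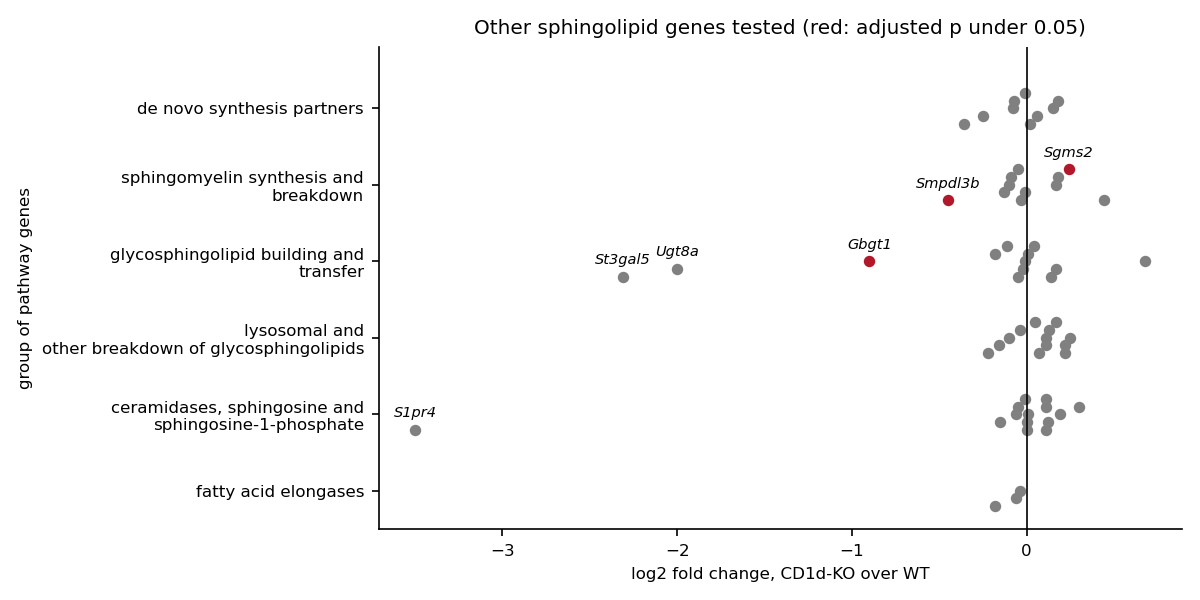
Log2 fold change of CD1d-KO over WT for the 63 tested genes of the wider pathway, one point per gene in 6 groups by role. Gbgt1 (-0.90), Smpdl3b (-0.45) and Sgms2 (0.24) are the 3 genes in red that passed the adjusted threshold, and the named grey points have a mean below 10 normalized counts in both genotypes.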

How the data were processed

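RNA was extracted from sorted IECs, and poly(A) libraries were sequenced on an Illumina instrument. The authors deposited raw counts per gene, made with featureCounts 1.6.4 on exons without strand (per the file headers, an mm10 annotation; per the labels and methods, HISAT2 and GRCm39). Coordinates follow the mm10 header. The 10 genes, the gene lists and the tests were chosen with earlier results of these data known.

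All 25239 genes were fitted with DESeq2 1.42.0 (R 4.3.3; genotype only, Wald test, Benjamini-Hochberg adjustment, threshold 0.05). Independent filtering removed 3638 genes with a mean under 2.41 normalized counts and Cook's rule removed 4. Normalized counts are raw counts over DESeq2 size factors, and levels per kb are these over the exon length of the table. Markers were scored as mean centred log2 normalized counts. Total counts of 23610266 to 31629435 per sample set the precision, and low counts such as those of Sptssb carry the most counting error. The methods give 4 mice of each genotype for the 8 samples, so p-values measure the spread between mice. That spread includes any difference by sex or experiment within a genotype. The paper states that its mice were not littermates and that this may affect their microbiota, and the part of either was not tested.

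Named genes were the 10 genes, Cd1d1, called genes of the wider pathway list, the gene with the most extreme test statistic in each of its groups, the 8 genes most like Sptssb and markers beside a result. S1pr4, St3gal5, Ugt8a, Neu1, Sptlc3 and Cers2 were named after their values were seen. Alternatives were edgeR 4.0.16, TMM factors, a minimum of 10 counts in 4 samples, no filtering, a replicate block, leaving out samples, and the stomach score as a covariate. Scripts were tested on simulated data. No transcript of the genes named for a fold change in the sphingolipid pathway had another genomic copy of at least 200 bases at 90% identity or more. The authors' methods name DESeq2.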

Additional observations from a re-analysis of the deposited data

Results flagged for a closer look

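Sptlc1 was the one gene with a sample that stood far from the others of its genotype: WT sample 3 had 2232 normalized counts, while the other 3 WT samples lay between 2100 and 2113. The gap was 0.904 of the range of the group, above Dixon's 95% critical value for 4 samples. In all, 34 groups of 4 samples were examined, and chance gives such a value in about 1 of 20. Sample 3 was also the highest WT sample for Sptlc2 (5666), Sptssb (166.8), Asah1 (2867) and Asah2 (4118).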

How the results depend on the processing

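The number of genes called over the whole table was 622. It was 299 by edgeR (289 of them also called by DESeq2), 372 in the samples without Y-linked counts, 106 with the stomach score as a covariate, 331 without WT samples 3 and 4, and 323 to 646 when 1 sample was left out. Of the 10 genes, 1 was called, against 0 with the stomach score, 0 without WT samples 3 and 4 and 1 to 2 when 1 sample was left out. Of the wider pathway list, 3 genes were called, against 0 with the stomach score, 1 without WT samples 3 and 4 and 2 to 4 when 1 sample was left out. With the stomach score, Sptlc2 turned to 0.01, Sptssb to 0.06 and Elovl6 to 0.02. Asah1, at 0.01, turned to -0.02 on leaving out CD1d-KO 3, CD1d-KO 4 or WT 1. The cause was not tested. Of the 8 genes most like Sptssb, 3 to 6 stayed among the first 8 when 1 sample was left out. Over all single-gene results and alternatives, 262 values kept their direction and call, 6 turned in sign (among them Sptssb with the stomach score, which also lost its call), 15 lost the call with the same sign and 5 gained one.

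Same-numbered samples did not deviate together in every case (r = 0.285, 0.025, 0.221 and 0.004 for numbers 1 to 4), and not every sample was most like its own number, so the numbers were not taken as pairs. With the number as a replicate block, 569 genes were called, 434 of them also called without it. The block called 1 of the 10 genes (Sptssb, log2 fold change -2.45) and 3 of the pathway list.

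Among the 10 genes, depth bears most on Sptssb, which had 10 to 24 reads in CD1d-KO. Its spread between WT samples was also wide (89.4 ± 66.9 normalized counts, SD, n = 4).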
